A study of Caenorhabditis elegans with 14 samples.

Results

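The response of wild-type *C. elegans* to *E. faecalis* was measured across all genes in 7 of the study's 14 RNA-seq libraries. They are all libraries of strain N2, taken by the strain and bacterium recorded for each sample: 3 of worms on *E. faecalis* OG1RF and 4 of worms on *E. coli* OP50. N2 is the wild-type Bristol strain, OP50 is the usual laboratory food, and OG1RF is a Gram-positive gut bacterium that can colonize and kill the worm. Animals were raised on *E. coli* to the L4 stage, the last larval stage, placed on fresh plates of either bacterium for 16 h at 25 °C and collected as adults of day 1. RNA was extracted from whole animals, so each value averages over all tissues of many worms, and fewer cells of a type and less RNA per cell cannot be told apart. The *E. faecalis* lawns grew on brain heart infusion agar with gentamycin. The medium of the *E. coli* plates during exposure is not given in the sources used here, so bacterium, medium and antibiotic cannot be told apart. The other 7 libraries were of worms with a deletion in the heme peroxidase gene *skpo-1*. The fold changes compare N2 libraries only. The *skpo-1* libraries had a part in the filter on low counts, the scaling, the estimated spread and the mean levels used to rank genes.

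*C. elegans* has no circulating immune cells and meets bacteria mainly in the intestine and at the cuticle. Its defense rests on a p38 kinase pathway headed by the adaptor TIR-1, on transcription factors such as HLH-30, the worm relative of the lysosomal regulator TFEB, and on secreted effectors. These include C-type lectins, which bind sugars on cells, lysozymes, which cut the bacterial wall, and small antimicrobial peptides. Bacteria are also the worm's food. A change of bacterium changes the supply of fatty acids, folate and vitamin B12, the cofactor that decides which pathway the worm uses to break down propionate.

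The 7 libraries held 17392531 to 33924413 counts. Taken over all tested genes, libraries of the same group differed by more than counting alone gives, at a chi-square per degree of freedom of 7.25 to 401. For genes at low levels counting limits the precision as well. Values are in CPM, counts relative to a library size that was corrected for composition. *E. coli* replicate 2 stood apart from the other 3 of its group. Its chi-square per degree of freedom against them was 338 to 401, and theirs among each other was 7.25 to 45.2. Its vitellogenin transcripts summed to 27578 CPM, against 116132 to 154996 CPM in the other 3. Its deviation from them ran with transcript length (Spearman rho -0.656 over 15668 genes, which are not independent replicates). For this reason many results are also given without it. Of 68 markers of intestine, epidermis, body muscle, pharynx, neurons, sperm and oocytes 67 passed the filter on low counts, as whole worms should give, and the exception was 1 sperm marker.

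Wild-type worms changed a large part of their transcriptome on *E. faecalis*, mostly upward. Of 15685 tested genes 3651 (23.3%) changed, 3008 upward (19.2%) and 643 downward (4.10%), so that 82.4% of the changes were rises. Here a change is one of at least 2-fold with a Benjamini-Hochberg adjusted P under 0.05 by the quasi-likelihood test of edgeR. The median log2 fold change was 1.84 among the genes that rose, -1.42 among those that fell and 0.03 over all tested genes. At least 8-fold rises were seen for 348 genes and falls of that size for 55, and 27 genes rose and 2 fell by at least 64-fold. The plot of level against fold change shows that most of the rises were of genes at low levels, while the genes with the highest levels changed little or fell.

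**Figure D1:**
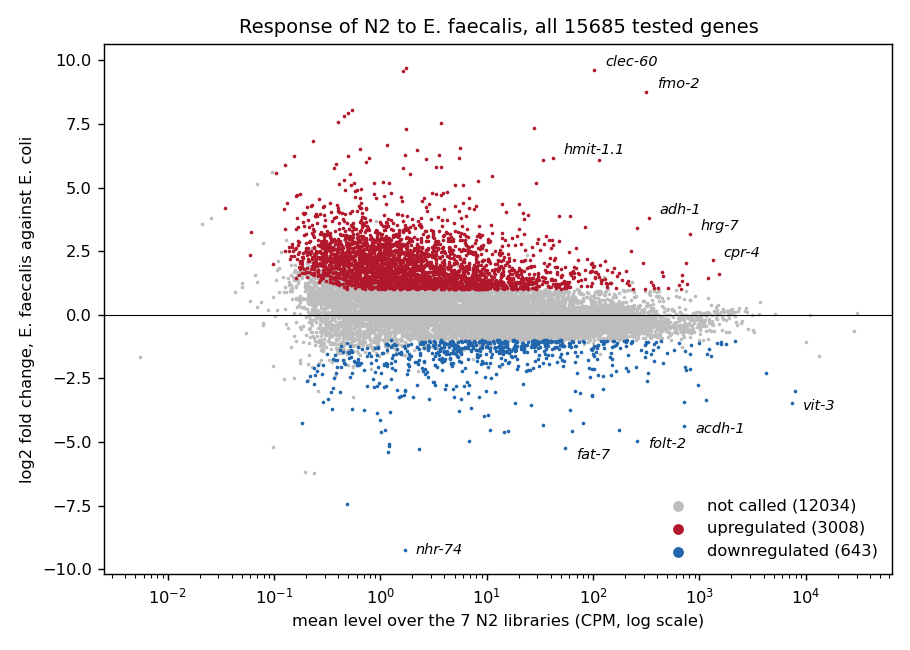
Log2 fold change on *E. faecalis* against *E. coli* (vertical axis) and mean level over the 7 N2 libraries in CPM (horizontal log axis), 1 point for each of 15685 tested genes. The 3008 upregulated genes (red) lie mostly at low levels and the 643 downregulated genes (blue) are spread over all levels, with *vit-3* at the right.

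This dependence on level was steep. Genes were divided into quintiles by their mean level per kilobase over all 14 libraries. In the lowest quintile 38.7% rose and 2.11% fell, with a median log2 fold change of 1.02. In the middle quintile 16.8% rose and 5.78% fell. In the highest quintile only 3.32% rose and 4.72% fell, and the median was -0.35. A gene at a low level could pass the filter through the libraries of 1 condition alone, of N2 or of *skpo-1* worms. The lowest quintile is therefore partly selected for genes that differ. The upregulated genes took 5.19, 6.78 and 6.31% of all counts in the 3 libraries on *E. faecalis* and 1.38 to 1.91% in the 4 on *E. coli*. The downregulated genes took 3.93, 2.27 and 2.13% on *E. faecalis* and 7.10 to 9.60% on *E. coli*. In both cases *E. faecalis* replicate 1 lay closest to *E. coli*. By nuclear chromosome, rises ranged from 14% of tested genes on III to 22.8% on IV and 22.6% on V, and falls from 2.21% on I to 6.65% on X.

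For most called genes the libraries on the 2 bacteria did not overlap. This held for 2570 of the 3008 upregulated and 528 of the 643 downregulated genes, where 22.6% of all tested genes were higher and 14.9% lower on *E. faecalis* without overlap. The number of calls depended on single libraries. Without *E. faecalis* replicate 1, the mildest library, 3322 genes rose (20.5%) and 1087 fell (6.72%). Without replicate 2 the counts were 2159 and 391 (13.8 and 2.50%), and without replicate 3 they were 2050 and 406 (13.2 and 2.60%). Without *E. coli* replicate 2 they were 3572 and 531 (23.4 and 3.47%). Leaving out another *E. coli* replicate gave 16.5 and 4.67% (replicate 1), 16.5 and 5.28% (replicate 3) and 15.9 and 4.74% (replicate 4). Calls that persisted whichever of the 7 libraries was left out numbered 1493 upward and 298 downward.

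**Figure D2:**
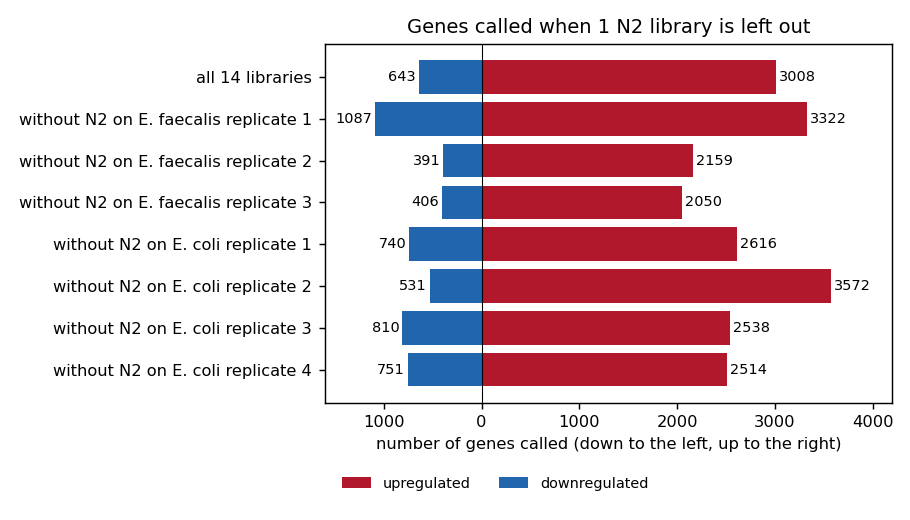
Number of genes called upregulated (red, to the right) and downregulated (blue, to the left) with all 14 libraries and with each of the 7 N2 libraries left out in turn. Leaving out *E. faecalis* replicate 1 raised the number of falls from 643 to 1087, and leaving out *E. faecalis* replicate 2 or 3 lowered it to 391 and 406.

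Removal of *E. coli* replicate 2 also changed how calls were spread over gene lengths. With all libraries the share of genes that rose was 17.7% in the shortest quintile (30 to 780 nt of exons) and 17.6% in the longest (2253 to 56044 nt). Without that library the shares were 28.3 and 15.3%, and the medians of the log2 fold change were 0.31 and -0.18. What made this library differ was not tested. Lists of short genes, such as those for neuropeptides and small antimicrobial peptides, are therefore given with and without it.

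The strongest responses of single genes started from levels near 0. *fmo-2*, a flavin-containing monooxygenase of the intestine (WBGene00001477, IV 10682524 to 10684367 in WBcel235), had 704, 698 and 787 CPM in the 3 libraries on *E. faecalis* and 1.91, 2.20, 1.43 and 1.04 CPM in the 4 on *E. coli*. Its log2 fold change was 8.77 (SE 0.289, edgeR adjusted P = 1.49e-10), with replicates close together on both bacteria. *clec-60*, a C-type lectin gene (WBGene00014046, II 10480043 to 10481874), had 59.8, 349 and 305 CPM on *E. faecalis* and 0.0681, 0.366, 0.387 and 0.246 CPM on *E. coli*. It rose by 9.63 on the log2 scale (SE 0.711, edgeR adjusted P = 8.03e-07), and *E. faecalis* replicate 1 was several times lower than the other 2. *cyp-13A7*, a cytochrome P450 (WBGene00000372, II 9803620 to 9805513), went from 0.340, 0.602, 0.387 and 0.123 CPM on *E. coli* to 46.4, 97.2 and 49.6 CPM on *E. faecalis* (log2 fold change 7.32, SE 0.586). *hmit-1.1*, a transporter of myo-inositol that responds to high osmolarity (WBGene00013073, V 18516789 to 18523875), had 0.885, 1.33, 1.98 and 0.922 CPM on *E. coli* and 113, 80.0 and 93.1 CPM on *E. faecalis* (log2 fold change 6.17, SE 0.344). In all 4 genes the lowest library on *E. faecalis* lay far above the highest on *E. coli*. The remaining leaders among genes with at least 10 CPM in the higher group and no overlap between the bacteria carry only sequence names: *C50F7.5* (log2 fold change 6.08), *Y65B4BR.1* (6.07), *T07H8.11* (6.18), *Y87G2A.16* (5.45), *T07G12.5* (5.24) and *H02F09.3* (5.16). *C50F7.5* depended on *E. faecalis* replicate 3 (5.45 without it), *T07H8.11* on *E. coli* replicate 2 (7.78) and *H02F09.3* on *E. coli* replicate 3 (5.78).

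Among the 10 genes with the largest gain in CPM were *adh-1*, *icl-1* and *lea-1*, with *fmo-2*, *cpr-4*, *hrg-7*, *clec-63* and *fat-2*. *adh-1*, an alcohol dehydrogenase, had 485, 770.4 and 889 CPM on *E. faecalis* and 51.8, 60.2, 52.6 and 40.3 CPM on *E. coli* (log2 fold change 3.80, SE 0.232, edgeR adjusted P = 1.15e-07). *icl-1*, the fused enzyme of the glyoxylate cycle that turns fat into carbohydrate, had 668, 1139 and 1524 against 589, 175, 448 and 299.5 CPM (log2 fold change 1.55, SE 0.380). *lea-1*, a protein that protects against drying and osmotic stress, had 2119, 942 and 905 against 379, 145, 391 and 389.6 CPM (2.02, SE 0.344), with replicate 1 the highest of the 3. *icl-1* and *lea-1* were both lowest in *E. coli* replicate 2, and both calls held without it (log2 fold changes 1.3 and 1.75).

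The 10 largest falls in fold change at 10 CPM or more in the higher group, without overlap, included genes of fat, folate and propionate metabolism beside others. *fat-7*, a stearoyl-CoA desaturase that makes oleic acid (WBGene00001399, V 7151353 to 7153146), had 2.34, 2.59 and 2.52 CPM on *E. faecalis* and 68.9, 109, 91.1 and 106 CPM on *E. coli*. Its log2 fold change was -5.23 (SE 0.229, edgeR adjusted P = 3.03e-09), and the 3 libraries on *E. faecalis* differed little. *folt-2*, a putative folate transporter (WBGene00018138, V 2872465 to 2875600), fell from 457, 462, 395 and 466 CPM on *E. coli* to 25.1, 8.57 and 9.85 CPM on *E. faecalis* (log2 fold change -4.95, SE 0.348). *msra-1*, a methionine sulfoxide reductase that repairs oxidized proteins, had 14.5, 12.5 and 11.6 against 117, 657, 222 and 183 CPM (-4.52, SE 0.521). Its *E. coli* replicate 2 was the highest of the 4, and the fall without that library was -3.78. *sysm-1* (-4.95), *fbxa-72* (-4.60), *pud-3* (-4.57), *C17H12.8* (-4.55) and *F15E6.4* (-4.52) also fell. The values of *sysm-1*, *pud-3* and *C17H12.8* without *E. coli* replicate 2 were -3.18, -3.57 and -3.69, and that of *folt-2* without *E. faecalis* replicate 1 was -5.62. *sysm-1* reached a mean of 10 CPM on *E. coli* only through replicate 2 (36.1 CPM, with a group mean of 11.5 CPM). The nuclear hormone receptor gene *nhr-74* (WBGene00003664, I 11429014 to 11432156) had 2.52, 3.27, 2.98 and 3.13 CPM on *E. coli* and no count in any library on *E. faecalis*. With 290 counts summed on *E. coli* and a floor of 3 counts over the group on *E. faecalis*, it was at least 93.9-fold lower.

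**Figure D3:**
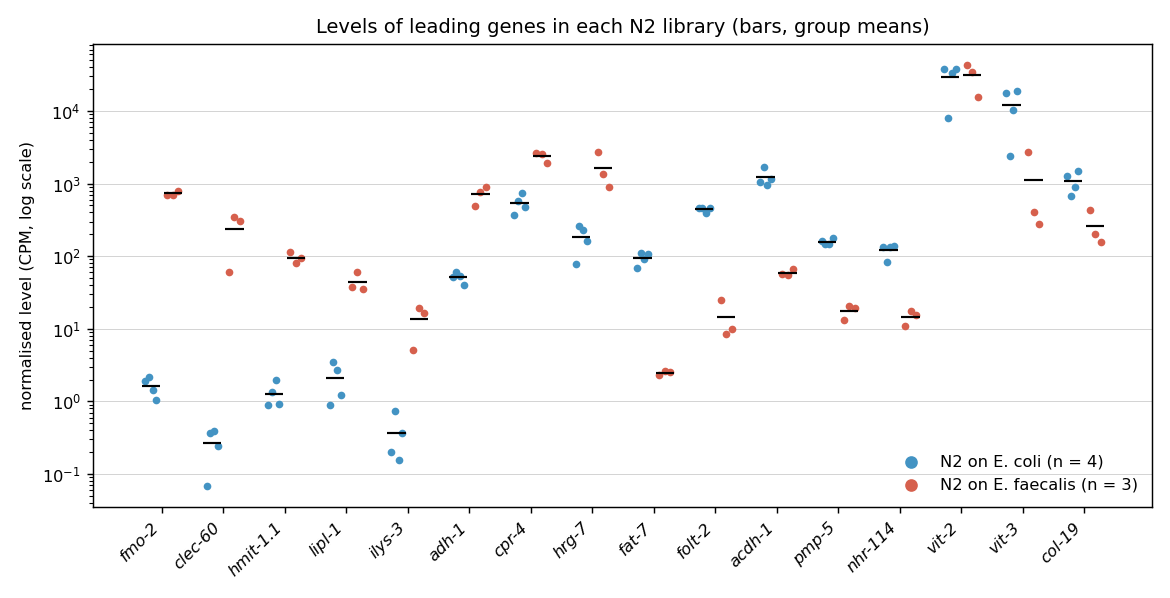
Level of 16 genes in each N2 library in CPM (vertical log axis), with 4 libraries on *E. coli* in blue, 3 on *E. faecalis* in red and group means as bars. *fmo-2* went from 1.04 to 2.20 CPM on *E. coli* up to 698 to 787 CPM on *E. faecalis*, *fat-7* and *acdh-1* fell without overlap, and *vit-2* overlapped. Levels of different genes are not to be compared, since CPM is not divided by length.

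Immune effector families responded in both directions. Of 123 tested C-type lectin genes 41 rose and 12 fell (33.3 and 9.76%, against 19.2 and 4.10% of all tested genes), and the median of all was 0.45. *clec-63* had 1729, 3011 and 2705 CPM on *E. faecalis* and 642, 763, 1201 and 688 CPM on *E. coli* (log2 fold change 1.59, SE 0.255, edgeR adjusted P = 7.28e-04). The 25 rises among the members below the family's median level per kilobase compare with 16 rises among those above it, which held 9 of the 12 falls. *clec-174* (5.83) and *clec-82* (5.82) rose from under 0.4 CPM in every library on *E. coli*. *clec-209* fell from 144, 316, 285 and 164 CPM to 60.2, 34.4 and 38.9 CPM (log2 fold change -2.35, SE 0.304), and *clec-97* (-3.22) and *clec-210* (-5.07) fell as well. The values moved to 5.02 for *clec-82* without *E. faecalis* replicate 3, to 6.55 for *clec-174* without *E. coli* replicate 3, and to -5.94 or -4.40 for *clec-210* without *E. faecalis* replicate 1 or 3.

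Lysozyme genes were split in the same way, with 4 up and 3 down of 13 tested (30.8 and 23.1%, against 19.2 and 4.10% of all tested genes). *ilys-3*, an invertebrate-type lysozyme that acts on Gram-positive cell walls (WBGene00016670, IV 2464456 to 2465443), had 5.17, 19.2 and 16.4 CPM on *E. faecalis* and 0.204, 0.733, 0.155 and 0.369 CPM on *E. coli* (log2 fold change 5.09, SE 0.597, edgeR adjusted P = 6.82e-05). *ilys-2* rose by 3.77 and *lys-3* by 3.89 on the same scale, and the *lys-3* call was lost without *E. faecalis* replicate 3 (2.64). In contrast, *ilys-5* had 189, 170.5 and 170.3 CPM on *E. faecalis* and 549, 951, 584 and 566 CPM on *E. coli* (-1.91, SE 0.214), and *lys-6* (-1.87) and *lys-10* (-1.97) fell as well. *lys-10* was at 1.65 CPM or less in every library, and its call was lost without *E. faecalis* replicate 2 (-2.15) or 3 (-1.61) and with the N2 libraries alone (-1.95). *ilys-3*, *ilys-2*, *lys-3* and *lys-6* were at 5.82, 4.69, 4.85 and -1.41 without *E. coli* replicate 2. In that fit 5 lysozyme genes rose and 2 fell. The summed level of the family was 1058, 817 and 782 CPM on *E. faecalis* and 1141, 2599.7, 1386 and 1253 CPM on *E. coli*, lower on *E. faecalis* without overlap.

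The small secreted peptides gave no common direction with all libraries. Over all tested genes 19.2% rose and 4.10% fell. Of 22 saposin-like genes 2 rose and 3 fell (9.09 and 13.6%), and of 18 epidermal *cnc* and *nlp* peptide genes 5 rose and 3 fell (27.8 and 16.7%). Of 20 *fip* and *fipr* genes 4 rose and 2 fell (20 and 10%). Without *E. coli* replicate 2 these counts were 8 and 2, 7 and 2, and 7 and 1, where 23.4% of all tested genes rose and 3.47% fell. Only 1 *fip* or *fipr* gene rose without *E. faecalis* replicate 2. *spp-17* had 59.4, 47.2 and 54.6 CPM on *E. faecalis* and 236, 379, 178 and 207 CPM on *E. coli* (log2 fold change -2.22, SE 0.289). *nlp-27* fell to 17.6, 8.93 and 7.84 from 39.5, 76.4, 24.0 and 42.0 CPM (-1.99), while *nlp-29*, an epidermal peptide induced by fungal infection and wounding, rose to 21.8, 27.4 and 24.8 from 8.03, 13.1, 4.84 and 10.6 CPM (1.43). *spp-27* (6.57), *cnc-6* (4.24), *cnc-11* (4.32) and the defensin-like *abf-2* (2.98) were among the rises. Leaving out *E. coli* replicate 2 raised these rises to 7.86, 4.90, 5.32 and 3.76, and leaving out *E. faecalis* replicate 3 lowered *spp-27* to 4.54. Mean levels were low, with 0.023 CPM on *E. coli* and 0.65 CPM on *E. faecalis* for *cnc-6*, and 0.37 and 3.18 CPM for *abf-2*. *spp-27*, *cnc-6* and *cnc-11* did not pass the filter on low counts with the N2 libraries alone.

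Genes named for infection responses also went both ways. *irg-8* had 47.1, 47.7 and 73.6 CPM on *E. faecalis* and 167, 325, 182 and 217 CPM on *E. coli*, a fall (log2 fold change -1.99, SE 0.289, edgeR adjusted P = 3.82e-04), whereas *dod-22* (2.48) and *irg-1* (1.51), a target of the transcription factor ZIP-2, rose from low levels. In total 5 of 18 *irg* and *dod* genes rose and 4 fell (27.8 and 22.2%, against 19.2 and 4.10% of all tested genes). When 1 N2 library was left out there were 3 to 6 rises and 1 to 6 falls, the fewest rises without *E. faecalis* replicate 1 and the fewest falls without replicate 2. The *pals* genes, which are induced by intracellular parasites and by proteasome block, were called only upward. Of 21 tested 11 rose (52.4%, against 19.2% of all tested genes), none fell, and the median was 1.56. Their log2 fold changes ran from -0.49 to 4.73, with 16 of 21 above 0. *pals-32* had 1.63, 6.40 and 9.44 CPM on *E. faecalis* and 0.204, 0.340, 0.194 and 0.492 CPM on *E. coli* (log2 fold change 4.24, SE 0.608), and *pals-37* (4.57) and *pals-39* (4.73) had the same order of libraries, with *E. faecalis* replicate 1 far below replicates 2 and 3. Leaving out 1 N2 library at a time gave 8 to 13 *pals* rises. Without *E. faecalis* replicate 3 the values of *dod-22*, *pals-37* and *pals-39* were 1.81, 3.55 and 3.74, and without *E. coli* replicate 2 those of *dod-22* and *pals-39* were 3.17 and 5.93. Of the F-box A family, whose members mark proteins for degradation, 28 of 116 rose and 3 fell (24.1 and 2.59%, against 19.2 and 4.10% of all tested genes). The rises numbered 15 without *E. faecalis* replicate 2, 17 without *E. coli* replicate 4 and 38 without *E. coli* replicate 2, and the falls numbered 10 without *E. faecalis* replicate 1 and 7 or 6 without *E. coli* replicate 3 or 4.

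Among 25 immune kinases and transcription factors 7 rose (28%, against 19.2% of all tested genes) and none fell. *cebp-1*, a bZIP transcription factor, had 32.6, 35.2 and 34 CPM on *E. faecalis* and 10.8, 5.10, 12.9 and 11.2 CPM on *E. coli* (log2 fold change 1.77, SE 0.300, edgeR adjusted P = 0.00101). *tir-1*, the adaptor at the head of the p38 pathway, had 48.0, 66.6 and 46.7 against 20.4, 19, 31.2 and 16.9 CPM (1.3, SE 0.211), and *vhp-1*, a phosphatase that dampens stress kinases, had 57.4, 90.2 and 81.6 against 35.8, 16.5, 40.3 and 38 CPM (1.23, SE 0.253). The *vhp-1* call was lost without *E. coli* replicate 2 (0.99). *hlh-30* was called at 1.24, but not without *E. faecalis* replicate 2 (0.98) or 3 (1.21) or *E. coli* replicate 2 (0.99) or 4 (1.21). The p38 kinase gene *pmk-1* itself was not called (16.7, 35.8 and 35.4 CPM on *E. faecalis* and 17.9, 58.0, 49.5 and 18.3 CPM on *E. coli*), nor was *zip-2* (log2 fold change 0.80). Without *E. coli* replicate 2 the number of rises in this list was 3, where 23.4% of all tested genes rose. Without any other N2 library it was 5 to 7.

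Genes of lysosomal lipases and cathepsins rose in part. Aspartic proteases (2 up and 2 down of 12, 16.7% each) and acid phosphatases (4 up and 3 down of 17, 23.5 and 17.6%), which also work in lysosomes or the gut, went both ways. Over all tested genes 19.2% rose and 4.10% fell. Of 7 lysosomal lipase genes *lipl-1*, *lipl-2* and *lipl-3* rose. *lipl-1* had 37.3, 60.6 and 34.9 CPM on *E. faecalis* and 0.885, 3.45, 2.71 and 1.23 CPM on *E. coli* (log2 fold change 4.36, SE 0.381, edgeR adjusted P = 5.00e-06). *lipl-2* had 33.6, 34.2 and 24.2 against 1.63, 2.17, 1.43 and 0.553 CPM (4.36, SE 0.301), and *lipl-3* rose by 3.08 (2.17 without *E. faecalis* replicate 3). All 3 are known targets of HLH-30. Of 11 cathepsin-type protease genes 6 rose and none fell, with a median of 1.18. *cpr-4*, a secreted cathepsin B, had 2614, 2588 and 1928 CPM on *E. faecalis* and 369, 569, 741 and 472 CPM on *E. coli* (2.14, SE 0.224, edgeR adjusted P = 2.42e-05), the largest gain in CPM of all genes that rose. *cpr-2* was at 0.0883, 9.60 and 16.3 CPM on *E. faecalis*, so replicate 1 lay at the level of the 4 libraries on *E. coli* (0 to 0.136 CPM). *sqst-1*, the autophagy receptor p62, had 135, 157 and 168 against 51.4, 36.8, 59.3 and 46.5 CPM (1.66, SE 0.182) and was the only 1 of 26 autophagy genes to be called. Of 21 genes for the proton pump that acidifies lysosomes only *vha-6*, the intestinal subunit, was called (1.05), and that call was lost without *E. faecalis* replicate 1 (0.88) or *E. coli* replicate 2 (0.89), and with DESeq2 or median-of-ratios scaling.

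**Figure D4:**
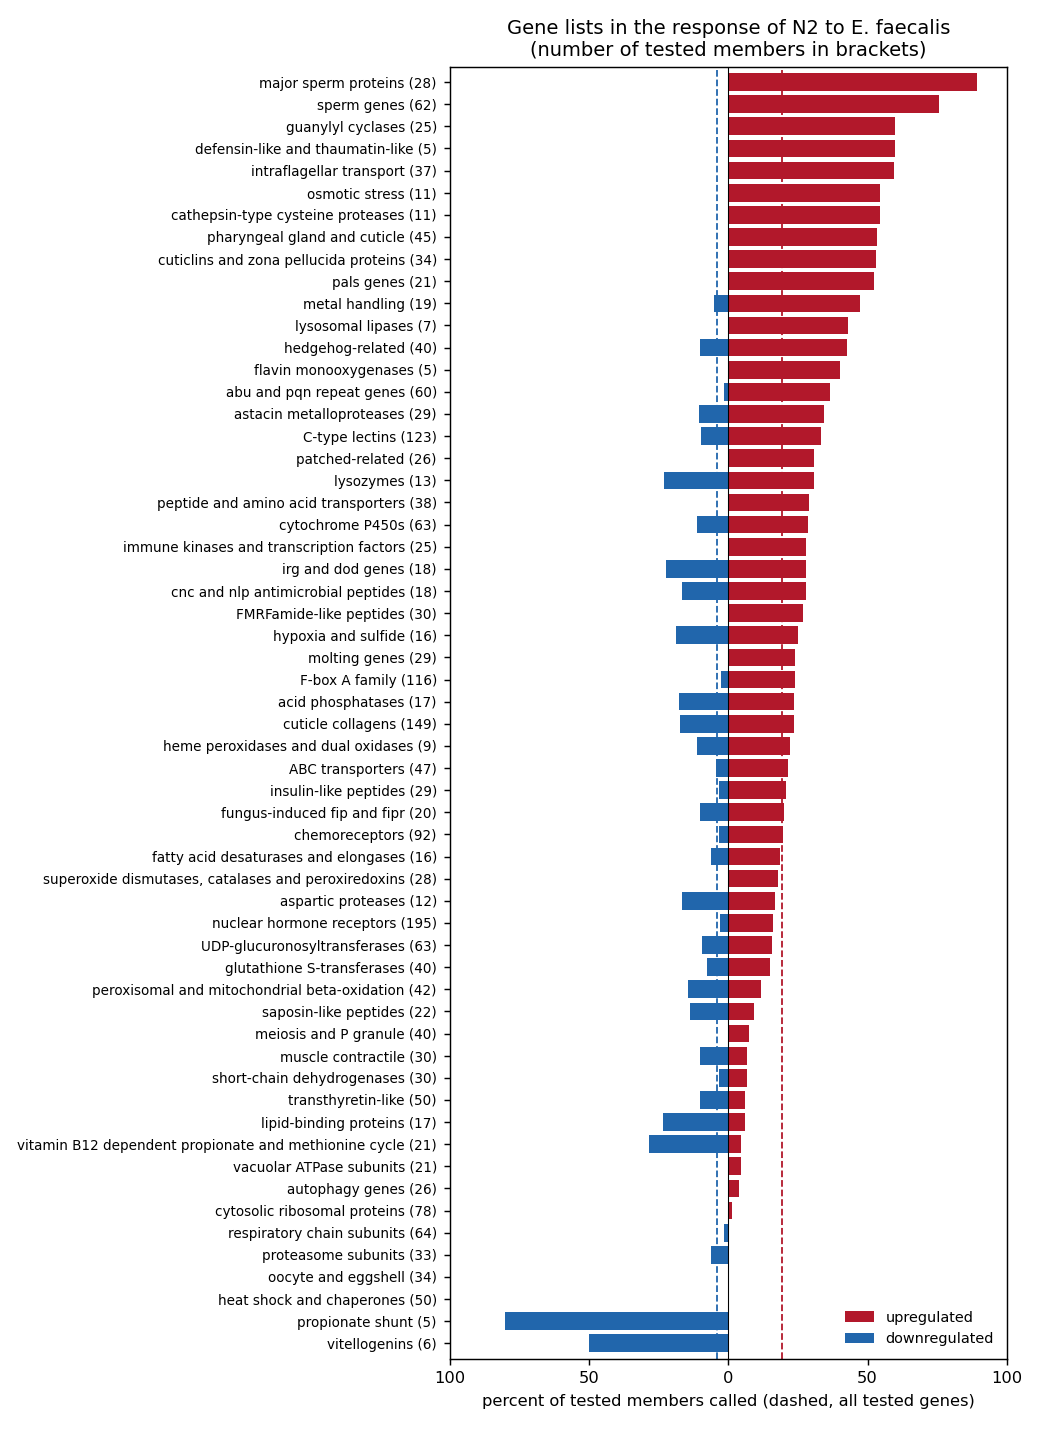
Percent of tested members called upregulated (red, to the right) and downregulated (blue, to the left) in each gene list, with the number of tested members in brackets. Dashed lines mark the shares over all tested genes, 19.2% up and 4.10% down. Major sperm proteins, sperm genes, defensin-like and thaumatin-like genes, guanylyl cyclases and intraflagellar transport stand at the top. Cathepsins, osmotic stress, pharyngeal gland and cuticle, cuticlins and *pals* genes follow, and propionate shunt and vitellogenin genes stand at the bottom.

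Of the 58 lists, 22 held rises and no fall. Among their 632 tested members 42 were lower by the quasi-likelihood test of edgeR at an unadjusted p below 0.05, and DESeq2 called 2 down. The lists were made with earlier results of these data known, and many of their members are low-level genes, of which a larger share rose over the whole transcriptome.

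Heme and metal handling genes rose in part. Of 19 metal handling genes 9 rose and 1 fell (47.4 and 5.26%, against 19.2 and 4.10% of all tested genes). Their median log2 fold change was 1.1 (0.65 without *E. faecalis* replicate 2 and 1.64 without *E. coli* replicate 2). *hrg-7*, a secreted protease-like protein that signals heme status between tissues (WBGene00007605, V 12742041 to 12744171), had 2686, 1368 and 883 CPM on *E. faecalis* and 78.2, 257, 229.8 and 164 CPM on *E. coli* (log2 fold change 3.17, SE 0.401, edgeR adjusted P = 1.35e-04). The heme transporter genes *hrg-1* (1.90) and *hrg-3*, whose product carries heme to embryos (4.27), rose, as did *hrg-2* (2.95), and so did *mrp-5*, the heme exporter of the intestine, with 738, 513 and 323 against 138, 70.5, 133 and 164 CPM (2.05, SE 0.284). *hrg-2*, *hrg-7* and *mrp-5* were highest in *E. faecalis* replicate 1. *mtl-1*, a metallothionein, rose by 3.92, *cdr-1*, a cadmium-induced gene, by 3.79 and *smf-3*, an intestinal iron and manganese importer, by 2.02. Removing *E. faecalis* replicate 1 lowered *hrg-2* to 1.79 and *cdr-1* to 2.81, and removing *E. coli* replicate 2 raised *hrg-3* to 4.97 and *mtl-1* to 4.88. The second metallothionein gene *mtl-2* was not called, with 137, 135 and 90.5 CPM on *E. faecalis* and 94.3, 532, 208 and 99.0 CPM on *E. coli*, where replicate 2 was the highest. Its log2 fold change was -0.95, and -0.16 without that library. Of the 2 ferritin genes *ftn-1* rose from under 0.7 CPM (2.80, SE 0.712; not called without *E. faecalis* replicate 3, 2.16), and *ftn-2* had 143, 142 and 154 against 125, 218, 115 and 119.4 CPM.

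Osmotic stress genes also rose in part. Of 11 tested 6 rose (54.5%, against 19.2% of all tested genes) and none fell, with a median of 1.32. Besides *hmit-1.1*, these were its paralog *hmit-1.2* (1.77), *tps-1*, which makes trehalose, with 51.1, 65.8 and 68.4 against 29.3, 14.2, 24.3 and 26.9 CPM (1.39, SE 0.214), *gpdh-1*, the glycerol-producing enzyme of the osmotic response, with 12.2, 6.13 and 11.9 against 3.47, 3.17, 3.02 and 6.58 CPM (1.32), *osm-8* (2.93) and *nlp-29*. The *gpdh-1* call was lost without *E. faecalis* replicate 3 (1.18). *osm-8* was at 3.76 without *E. coli* replicate 2. The osmolarity of the plates is not given in the sources used here. Of 50 heat shock genes and chaperones edgeR and DESeq2 both called 0, with a median of -0.28 and an unadjusted p below 0.05 in edgeR for 2 upward and 20 downward. Of 28 genes for superoxide dismutases, catalases and peroxiredoxins 5 rose (17.9%, against 19.2% of all tested genes) and none fell, although 7 were lower at an unadjusted p below 0.05 in edgeR and DESeq2 called 0 down. The rises included *sod-3* (1.2) and *sod-5* (2.79), which were below 8 CPM in every library. The *sod-3* call was lost without *E. faecalis* replicate 1 (0.67) and with the N2 libraries alone (1.21).

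Among detoxification families the cytochrome P450 genes had the most calls. Of 63 of them 18 rose and 7 fell (28.6 and 11.1%, against 19.2 and 4.10% of all tested genes). Of 63 UDP-glucuronosyltransferase genes 10 rose and 6 fell (15.9 and 9.52%), and of 40 glutathione S-transferase genes 6 and 3 (15 and 7.5%), so rises were no more frequent there than over all genes. The falls of these 2 families numbered 11 and 6 without *E. faecalis* replicate 1. Their rises numbered 14 and 9 without *E. coli* replicate 2, where 23.4% of all tested genes rose. *cyp-37B1* (4.6) rose and *cyp-25A1* (-2.62) fell. *cyp-37B1* was at 5.62 without *E. coli* replicate 2 and *cyp-25A1* at -3.32 without *E. faecalis* replicate 1. Of 5 flavin monooxygenase genes *fmo-1* (1.77) rose besides *fmo-2*. In the hypoxia and sulfide list *rhy-1*, a negative regulator of the hypoxia factor HIF-1, fell to 7.99, 8.75 and 9.58 from 18.6, 18, 23.5 and 19.2 CPM (-1.18, SE 0.183), and 4 genes rose and 3 fell of 16 (25 and 18.8%).

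The genes of propionate breakdown fell together. When vitamin B12 is scarce, worms degrade propionate through a shunt of 5 enzymes, and *acdh-1*, the first of them, is widely used as a sensor of dietary B12. *acdh-1* (WBGene00016943, I 6497436 to 6499560) had 56.4, 55.8 and 66.1 CPM on *E. faecalis* and 1064, 1673, 959 and 1161 CPM on *E. coli*. Its log2 fold change was -4.35 (SE 0.244, edgeR adjusted P = 5.26e-08), with tight replicates on *E. faecalis*. *ech-6* (108, 93.7 and 103 against 450.2, 604, 448 and 473 CPM, log2 fold change -2.28), *hach-1* (76.2, 65.4 and 69.2 against 336, 314, 329 and 313 CPM, -2.20) and *hphd-1* (83.1, 64.1 and 101 against 553, 333, 563 and 537 CPM, -2.59) encode the next 3 steps and fell in every fit with 1 library left out. *alh-8*, the last step, was not called, with 953, 1328 and 1342 CPM on *E. faecalis* and 1345, 565, 1492 and 1186 CPM on *E. coli*. The 4 falls among 5 genes compare with 4.10% of all tested genes. *acdh-2*, a paralog of *acdh-1*, fell as well (-4.32).

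The regulators and the B12-dependent branch followed in part. *nhr-68*, a nuclear receptor that turns on the shunt, had 13.1, 16.2 and 13.9 CPM on *E. faecalis* and 29, 67.8, 29.4 and 29.3 CPM on *E. coli* (log2 fold change -1.44, SE 0.309). Without *E. coli* replicate 2 its value was -1.04. *nhr-114*, a nuclear receptor needed for fertility on diets poor in B12, had 11, 17.5 and 15.3 against 132, 84.3, 132 and 140.1 CPM (-3.06, SE 0.242, edgeR adjusted P = 1.73e-06). *pmp-5*, related to the human lysosomal B12 transporter ABCD4, had 13.2, 20.6 and 19.2 against 161, 147, 146 and 176 CPM (-3.15, SE 0.183). In the list of B12-dependent propionate and methionine metabolism 6 of 21 genes fell and 1 rose (28.6 and 4.76%, against 4.10 and 19.2% of all tested genes), with a median of -0.62. The counts were 3 and 2 without *E. faecalis* replicate 2. *sams-1*, which makes S-adenosylmethionine, fell (-2.10), and so did *mtrr-1*, which reactivates methionine synthase (-1.02; -0.90 and not called without *E. faecalis* replicate 2). Methionine synthase *metr-1* stayed short of the 2-fold threshold (-0.91, edgeR adjusted P = 0.00763) except without *E. coli* replicate 2 (-1.12), and the B12-dependent mutase gene *mmcm-1* had 202, 198 and 191 against 184, 95.4, 179.9 and 191 CPM (log2 fold change 0.28).

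Genes of fat metabolism changed in both directions. While *fat-7* fell, its near copy *fat-6* was not called (252, 396 and 412 CPM on *E. faecalis* and 229, 276, 251 and 224 CPM on *E. coli*), and the next desaturases rose: *fat-2*, which makes linoleic acid, with 1077, 1299.8 and 1036 against 379, 662, 525 and 396 CPM (log2 fold change 1.21, SE 0.189) and *fat-3*, the delta-6 desaturase, with 198, 280.1 and 263 against 72.1, 94.7, 70.4 and 69.5 CPM (1.69, SE 0.166, edgeR adjusted P = 1.41e-05). *acs-2*, an acyl-CoA synthetase that feeds fatty acids to mitochondrial oxidation, had 193, 566 and 859 against 77.7, 35.3, 60 and 29.2 CPM (3.42, SE 0.481), lowest in *E. faecalis* replicate 1. Over 42 genes of peroxisomal and mitochondrial beta-oxidation 5 rose and 6 fell (11.9 and 14.3%, against 19.2 and 4.10% of all tested genes). Falls were thus more frequent and rises less frequent than over all genes, and the median was -0.39. There were 3 and 2 rises without *E. faecalis* replicates 2 and 3 and 10 falls without replicate 1. *dhs-25*, a short-chain dehydrogenase, had 17.2, 16.3 and 17.7 against 174, 149, 146 and 156 CPM (-3.20, SE 0.177, edgeR adjusted P = 5.26e-08).

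Yolk transcripts were lower in part, with a wide spread. Vitellogenins carry lipid from the intestine to oocytes. *vit-3* had 2682, 412 and 274 CPM on *E. faecalis* and 17571, 2424, 10299 and 18666 CPM on *E. coli* (log2 fold change -3.45, SE 0.839, edgeR adjusted P = 0.00657), so *E. faecalis* replicate 1 and *E. coli* replicate 2 overlapped. *vit-4* (-3.0) and *vit-1* (-2.29) were called as well, *vit-1* not without *E. faecalis* replicate 2 (-2.17) or 3 (-1.96). Without *E. faecalis* replicate 1 the falls of *vit-3*, *vit-4* and *vit-1* were -5.17, -4.46 and -2.93. *vit-2*, *vit-5* and *vit-6* were not called, though *vit-5* was without *E. faecalis* replicate 1 (-2.50) or *E. coli* replicate 2 (-1.99). *vit-2* had 42789.6, 34765 and 15330.5 CPM on *E. faecalis* and 37891, 7878, 33081 and 38266 CPM on *E. coli*. The sum over the 6 genes was 100584, 60587 and 26582 CPM on *E. faecalis* and 152321, 27578, 116132 and 154996 CPM on *E. coli*. Without *E. coli* replicate 2, 4 of 6 fell, with a median of -2.32 in place of -1.96. *vit-3*, *vit-4* and *vit-5* are near-identical copies whose reads were shared out by the quantification, so their separate values are uncertain.

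**Figure D5:**
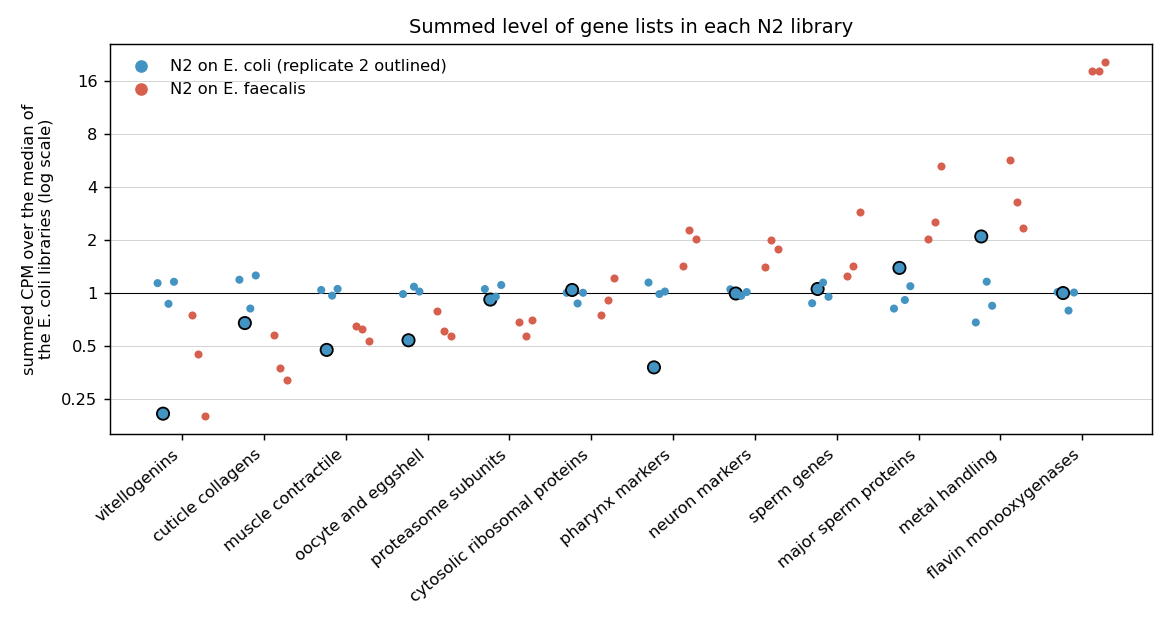
Summed CPM of 12 gene lists in each N2 library over the median of the 4 *E. coli* libraries (vertical log axis), with *E. coli* in blue, *E. faecalis* in red and *E. coli* replicate 2 outlined. Collagens, muscle and oocyte genes and the proteasome lie lower on *E. faecalis*, sperm, pharynx and neuron genes higher, and *E. coli* replicate 2 lies with or beyond the *E. faecalis* libraries for yolk, muscle and oocyte genes.

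Cuticle genes changed in both directions, with more of the highly expressed collagens down than up and the cuticlins up. Of 149 cuticle collagen genes 35 rose (23.5%) and 26 fell (17.4%), against 19.2 and 4.10% of all tested genes. The share of rises was thus close to that over all genes, and the share of falls was higher. Of the 26 falls 24 were among members above the family's median level per kilobase. The summed level of the family therefore fell to 17111, 11146 and 9472 CPM on *E. faecalis* from 35213, 19964, 24143 and 37227 CPM on *E. coli*, although the median gene was at 0.74 on the log2 scale. *col-19*, the collagen that marks the adult epidermis (WBGene00000608, X 421707 to 422691), had 427, 203 and 155 CPM on *E. faecalis* and 1263, 670.3, 900.1 and 1479.8 CPM on *E. coli* (log2 fold change -2.04, SE 0.385, edgeR adjusted P = 0.00174). *col-93* had 362, 111 and 83.9 against 2297, 1080.2, 1721 and 2413 CPM (-3.34) and *col-124* 352, 210.4 and 115 against 1921, 759, 1169 and 2282 CPM (-2.76). The fall of *col-93* was -4.29 without *E. faecalis* replicate 1. *col-65* (2.97) and *col-115* (2.80) were among the rises. The number of collagen rises ran from 18 to 38 and of falls from 17 to 29 when 1 N2 library was left out.

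Cuticlins, which form the ridges and other insoluble parts of the cuticle, rose in 18 of 34 cases and fell in none (52.9% up, against 19.2% of all tested genes, median 1.2), but in only 9 cases without *E. faecalis* replicate 2. *cut-2* had 40.7, 113.6 and 66.5 CPM on *E. faecalis* and 16.2, 8.37, 8.29 and 1.60 CPM on *E. coli* (log2 fold change 3.10, SE 0.503, edgeR adjusted P = 7.88e-04). Of 40 hedgehog-related genes, secreted proteins used in molting and not in classical hedgehog signaling, 17 rose and 4 fell (42.5 and 10%), with 9 rises without *E. faecalis* replicate 2 and 12 without *E. faecalis* replicate 3 or *E. coli* replicate 4. They included *grl-2* (5.16) and *wrt-2* (2.53) upward and *grd-4* (-5.41) downward. *grl-2* was at 3.66 without *E. faecalis* replicate 1 and at 6.42 without *E. coli* replicate 2. Patched-related genes, their proposed partners, rose in 8 of 26 cases (30.8%), and in 5 without *E. faecalis* replicate 2, where 13.8% of all tested genes rose. Of 29 molting genes 7 rose and none fell (24.1% up), and 12 rose without *E. coli* replicate 3. *mlt-9* had 6.40, 12.1 and 7.44 against 1.70, 1.28, 1.98 and 0.430 CPM (2.66, SE 0.490), and *peb-1* (2.31) and *grh-1* (1.66), transcription factors active in molting animals, rose as well. *mlt-9*, *cut-2* and *wrt-2* were lowest in *E. coli* replicate 4. With L4 animals taken into the adult stage during exposure, the number of animals still at the molt was not measured.

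Genes of the pharyngeal glands and cuticle and markers of pharynx and neurons rose in part, and none of them was called down. Of 45 genes of the pharyngeal glands and cuticle 24 rose and none fell (53.3% up, against 19.2% of all tested genes, median 1.56). Without *E. faecalis* replicate 2, 15 rose. The rises with all libraries included *phat-2* (2.63) and *appg-1* (3.23). The 9 pharynx markers summed to 595, 949.6 and 848 CPM on *E. faecalis* and 479, 158, 412 and 426 CPM on *E. coli*, with *E. coli* replicate 2 the lowest, and 5 of them rose (3 without *E. faecalis* replicate 2). The 11 neuron markers summed to 496, 701 and 629.7 CPM on *E. faecalis* and 369.9, 350.2, 339.8 and 357 CPM on *E. coli* without overlap, and 5 rose and none fell, with 2 rises without *E. faecalis* replicate 2 and 3 without replicate 3. Single markers differed, with log2 fold changes from -0.45 to 1.36, and 1 with means of 122 CPM on *E. coli* and 125 CPM on *E. faecalis* was at 0.036. The sum therefore does not stand for all of them, and *egl-3* and *egl-21* made up a large part of it. *egl-3*, the protease that cuts neuropeptides from their precursors, had 135, 229 and 186 against 87.9, 37.1, 76.4 and 84.8 CPM (log2 fold change 1.36, SE 0.245, edgeR adjusted P = 0.00138). *egl-21*, which trims them further, had 92.8, 120.1 and 122 against 55.7, 37.4, 56.9 and 53.4 CPM (1.135, SE 0.158; 0.99 and not called without *E. coli* replicate 2). Whether more animals, more cells or more RNA per cell gave these sums was not tested.

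Genes of sensory cilia and guanylyl cyclases also rose in part. Those of intraflagellar transport, which builds the sensory cilia, rose in 22 of 37 cases (59.5%, against 19.2% of all tested genes) and fell in none. The median was 1.25, and 16 to 28 rose when 1 N2 library was left out. *che-11*, a subunit of the transport particle, had 2.60, 3.72 and 2.80 CPM on *E. faecalis* and 0.749, 0.837, 0.581 and 1.17 CPM on *E. coli* (1.87, SE 0.366, edgeR adjusted P = 0.00210), and *klp-11*, a subunit of its kinesin, had 12.2, 10 and 7.19 against 2.79, 4.21, 3.68 and 1.91 CPM (1.62). With the authors' normalization *klp-11* was at 2.97. Of 25 guanylyl cyclase genes 15 rose (60%, against 19.2% of all tested genes) and none fell (median 1.38). Their median level was low, at -1.01 to 0.91 on the log2 CPM scale across the 7 N2 libraries. Genes at low levels rose more often over the whole transcriptome (38.7% in the lowest quintile by level per kilobase). That quintile is partly selected for genes that differ. *gcy-29* had 1.46, 1.74 and 1.63 against 0.136, 0.157, 0.194 and 0.246 CPM (3.12, SE 0.406), and *daf-11*, which acts in sensing of odors and dauer pheromone, 0.971, 2.19 and 1.28 against 0.476, 0.419, 0.310 and 0.369 CPM (1.92). The number of guanylyl cyclase rises was 8 without *E. faecalis* replicate 2 or 3 and 9 without *E. coli* replicate 2. FMRFamide-like peptide genes rose in 8 of 30 cases with all libraries (26.7%, against 19.2% of all tested genes). They rose in 21 cases without *E. coli* replicate 2 and in 15 without *E. faecalis* replicate 1, where 23.4 and 20.5% of all tested genes rose. Without *E. coli* replicate 3 or *E. faecalis* replicate 2 they rose in 3 and 4 cases, against 16.5 and 13.8% of all tested genes. Genes of insulin-like peptides rose in 6 of 29 cases (20.7%), close to the share over all tested genes, and in 13 without *E. coli* replicate 2. *ins-11*, an intestinal insulin-like peptide raised by pathogens, was at 0.265, 0.610 and 2.96 CPM on *E. faecalis* and 0.0681, 0.0523, 0 and 0 CPM on *E. coli* (5.18, SE 0.893). Its value was 3.64 without *E. faecalis* replicate 3 and 5.83 without *E. coli* replicate 2. *ins-34* fell (-2.63). Of 1357 listed chemoreceptor genes only 92 passed the filter, of which 18 rose and 3 fell (19.6 and 3.26%), close to the background, with 9 rises without *E. faecalis* replicate 2, 11 without *E. faecalis* replicate 3 or *E. coli* replicate 4 and 24 without *E. coli* replicate 2.

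Sperm genes rose and oocyte genes did not. Of 62 sperm genes 47 rose (75.8%, against 19.2% of all tested genes) and none fell, with a median log2 fold change of 1.93. The summed level of the list was 365, 416 and 844 CPM on *E. faecalis* and 254, 306, 333 and 277 CPM on *E. coli*, so replicate 3 was more than 2 times as high as the other 2. *gsp-3*, a sperm phosphatase (WBGene00021113, I 4709259 to 4710712), had 5.47, 8.38 and 23 CPM on *E. faecalis* and 1.91, 0.942, 2.56 and 1.54 CPM on *E. coli* (2.83, SE 0.471, edgeR adjusted P = 8.91e-04). The argonaute genes *alg-3* (2.92) and *alg-4* (3.21), whose small RNAs act in spermatogenesis, had the same order of libraries. Without *E. faecalis* replicate 3 *gsp-3*, *alg-3* and *alg-4* were at 2.01, 2.16 and 2.33, and *alg-4* was at 3.82 without *E. coli* replicate 3. Major sperm protein genes rose in 25 of 28 cases (median 1.64). Only 4 of these calls persisted in every fit without 1 N2 library, and without *E. faecalis* replicate 3 4 major sperm protein genes and 18 sperm genes rose, where 13.2% of all tested genes rose. The *msp* genes are near-identical, so single members are uncertain. Of 34 oocyte and eggshell genes edgeR and DESeq2 both called 0 (median -0.44), while 15 were lower at an unadjusted p below 0.05 in edgeR. *puf-5*, a translational regulator of oocytes, had 1055, 638 and 668 CPM on *E. faecalis* and 1272, 670.5, 1512 and 1261 CPM on *E. coli*, where replicate 2 lay among the libraries on *E. faecalis*. Of 40 genes of meiosis and P granules, the germline RNA granules, *alg-3* and *alg-4* rose, and the third call, *fog-3*, was lost without any 1 of 4 of the N2 libraries and with the N2 libraries alone.

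Few housekeeping genes passed the 2-fold threshold. Of 33 proteasome genes only *pas-2* (-1.05) and *rpt-4* (-1.05) were called, both downward. The calls were lost without *E. faecalis* replicate 2 (-0.86 and -0.84) or *E. coli* replicate 2 (-0.94 and -0.97), while without *E. faecalis* replicate 1 or *E. coli* replicate 3 6 and 5 of the genes were called down. Even so, 27 of the 33 were lower on *E. faecalis* in all libraries without overlap, against 14.9% of all tested genes, and the median was -0.65. The summed level was 5405, 4479 and 5558 CPM on *E. faecalis* and 8302, 7233, 7511 and 8755 CPM on *E. coli*, where replicate 2 lay within the range of its group. Cytosolic ribosomal protein genes summed to 71896, 87941 and 117280 and 96678, 100300, 84066 and 96729.5 CPM, with 1 of 78 called. Of 64 respiratory chain genes 1 was called. Muscle contractile genes were split, with 2 up and 3 down of 30 (6.67 and 10%, against 19.2 and 4.10% of all tested genes). The troponin genes *tnt-2* (-1.66), *unc-27* (-1.40) and *pat-10* (-1.50), which regulate contraction, fell. Another troponin gene of the list, also a pharynx marker, rose (1.48), so troponin genes did not fall as a class. The myosin heavy chain gene *unc-54* was not called, with 1532, 1237 and 1143 CPM on *E. faecalis* and 2678, 485, 2560.3 and 2689 CPM on *E. coli*. Without *E. coli* replicate 2 *unc-54* fell (-1.04), as did 7 muscle genes in all, and 6 muscle genes fell without *E. faecalis* replicate 1.

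The gene mutated in the study's second strain was itself lower in wild-type worms on *E. faecalis*. *skpo-1*, a heme peroxidase (WBGene00009897, II 8400299 to 8404848), had 199, 126.1 and 112 CPM on *E. faecalis* and 292, 283, 301 and 314 CPM on *E. coli* (log2 fold change -1.03, SE 0.180, edgeR adjusted P = 0.00120). Its libraries did not overlap, and the call, close to the 2-fold threshold, was lost without *E. faecalis* replicate 2 (-0.94) or 3 (-0.87). Its relative *skpo-2* rose by 2.40. Of 9 genes in the list of heme peroxidases, dual oxidases and their partners 2 rose and 1 fell (22.2 and 11.1%, against 19.2 and 4.10% of all tested genes). There was 1 rise without *E. faecalis* replicate 2, *E. coli* replicate 1 or *E. coli* replicate 3.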

How the data were processed

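The N2 comparison used 7 of 14 libraries. The authors trimmed 75-nt paired reads (FastQC, Trimmomatic 0.36), quantified them with Salmon 1.2.1 on the WBcel235 transcriptome and summed them per gene with tximport. The deposited expected counts had been rounded by the authors to whole numbers, as all values in the table were. A second deposited table holds a signal, counts that the authors normalized with DESeq2 1.26.0 in R 3.6.3, and served only as another scaling. Estimated reads can be shared between near-identical genes, and the strandedness of the libraries is not given in the sources used here. Of 149 genes named, the exons of 40 share bases with another gene.

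All 14 libraries (15174830 to 36682565 counts) were fitted together in edgeR 4.0.16 under R 4.3.3 with filterByExpr (minimum count 10, minimum total 15), TMM scaling and 1 coefficient per condition, without covariates. Of 21982 genes 15685 were tested, with a common biological coefficient of variation of 0.293. SE is the log2 fold change divided by the root of the F statistic. CPM were scaled by library size and TMM factor. Nothing shows which worms or days the replicates share beyond their being called biological replicates. Symbols were matched for 19793 of 21982 identifiers (Ensembl 115 WBcel235). The fitting was tested on simulated counts. Alternatives were DESeq2 1.42.0, 2 other scalings, no filter, only the N2 libraries, a replicate block, other thresholds and each library left out.

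The comparison, the gene lists and the rule for named genes were chosen with earlier results of these data known. The rule took *skpo-1*, the 10 largest rises and falls in fold among called genes with at least 10 CPM and no overlap, the 10 largest in CPM, and up to 3 called members per direction of each list by adjusted P, with short lists in full. *hlh-30*, *pmk-1*, *zip-2*, *hrg-1*, *hrg-3*, *hrg-2*, *mtl-1*, *ftn-2*, *sod-3*, *sams-1*, *metr-1*, *mmcm-1*, *fat-6*, *Y54G2A.57* and *cyp-33B1* fall outside it and were chosen after their values were seen. Sequences were not analysed here. Planned promoter motif searches were not run.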

Additional observations from a re-analysis of the deposited data

Results flagged for a closer look

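In 18 of the 149 named genes 1 of the 4 libraries of N2 on *E. coli* lay so far from the other 3 that its gap to the nearest of them took most of the group's range (Dixon's test at 95%, which chance alone would meet in about 1 of 20 genes). In 16 of the 18 it was replicate 2. That library was low for *lea-1* (145 CPM), *hphd-1* (333 CPM), *nhr-114* (84.3 CPM), *mmcm-1* (95.4 CPM), *vit-2* (7878 CPM), *tnt-2* (206 CPM) and *unc-54* (485 CPM). It was high for *sysm-1* (36.1 CPM), *ilys-5* (951 CPM), *lys-6* (15.3 CPM), *irg-1* (1.07 CPM), *ftn-2* (218 CPM), *ech-6* (604 CPM), *nhr-68* (67.8 CPM), *fat-3* (94.7 CPM) and *lbp-6* (564 CPM). The remaining values were *folt-2* in replicate 3 (395 CPM, low) and *gpdh-1* in replicate 4 (6.58 CPM, high). The called genes among the 16 kept their calls without replicate 2.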

How the results depend on the processing

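Leaving out 1 of the 14 libraries gave 2456 to 4409 changed genes, 2050 to 3572 up and 391 to 1087 down. The N2 libraries alone gave 2033 up and 420 down. Among the named genes, *spp-27*, *cnc-6*, *cnc-11*, *cpr-2*, *sod-5*, *ins-11* and *cyp-33B1* did not pass the filter in that fit. An adjusted P below 0.01 gave 2232 (1822 up, 410 down), a test against a 2-fold change (edgeR's glmTreat) 949 (826 and 123), and no minimum fold change 5982, with 2276 of them down. DESeq2 gave 2997 up and 767 down and shared 3528 of the 3651 calls. The other scalings and no filter on low counts stayed within 1.5 times each count. A replicate block gave 3319 changed genes (2720 up, 599 down) and did not call *hlh-30* (0.95) or *lys-10* (-1.73). Same-numbered libraries of the 2 groups correlated in their residuals at 0.178, -0.0084 and 0.175, so numbers were not taken to pair samples, and not every library correlated best with its own number. Of 136 called genes named, 120 kept their call in all settings run for them, 16 lost it in 1 or more and 0 changed sign. Reversals of sign were seen for 4 genes that were not called. *vit-2* was at -0.044 with the replicate block and -0.26 to 0.41 without 1 library. *alh-8* was at -0.0055 and -0.17 to 0.22 in the same settings, and *pmk-1* at -0.55 to 0.028 without 1 library. *ftn-2* was at -0.0068 with DESeq2, -0.0063 with median-of-ratios scaling and -0.090 to 0.27 without 1 library. The cause of these shifts was not tested. Fold changes of genes well under 1 CPM rest on few counts.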

Other observations

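Several further gene groups held called genes, some at shares near those over all tested genes (19.2% up and 4.10% down) and others not. Of 195 nuclear hormone receptor genes 31 rose and 6 fell (15.9 and 3.08%), and without *E. coli* replicate 2 the rises numbered 53, where 23.4% of all tested genes rose, and without *E. faecalis* replicate 2 they numbered 21. *nhr-35* had 30.7, 39.3 and 29.2 CPM on *E. faecalis* and 13.4, 9.86, 15.5 and 12.3 CPM on *E. coli* (log2 fold change 1.37, SE 0.174). Of 47 ABC transporter genes 10 rose (21.3%), among them *haf-7* with 146, 32.7 and 23.9 against 11.2, 7.40, 9.34 and 11.2 CPM (2.79, and 1.52 without *E. faecalis* replicate 1, the highest), and 2 fell (4.26%), *pmp-5* (-3.15) and the P-glycoprotein gene *pgp-1* (-2.14). Peptide and amino acid transporter genes rose in 11 of 38 cases (28.9%), including *snf-11*, a transporter of the neurotransmitter GABA, with 8.79, 14 and 14.1 against 4.36, 4.84, 4.49 and 3.32 CPM (1.53). Of 60 *abu* and *pqn* genes, many of which encode pharyngeal cuticle proteins, 22 rose and 1 fell (36.7 and 1.67%), among them *abu-14* with 16.2, 70.8 and 37.1 against 5.92, 2.77, 6.12 and 1.41 CPM (3.35, and 2.72 without *E. faecalis* replicate 2).

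Of 17 lipid-binding protein genes 4 fell and 1 rose (23.5 and 5.88%), and without *E. faecalis* replicate 2 or 3 or *E. coli* replicate 2 only 2 fell. *lbp-6* had 124, 76.6 and 104 CPM on *E. faecalis* and 196, 564, 217 and 219 CPM on *E. coli* (-1.56, SE 0.326), with *E. coli* replicate 2 far above the rest, and *far-7* rose (3.51). Without *E. coli* replicate 2 *lbp-6* was at -1.07. Of 50 transthyretin-like genes 3 rose and 5 fell (6 and 10%), without *E. coli* replicate 2 the counts were 6 and 2, and without *E. faecalis* replicate 2 or 3 they were 1 and 2. Of 561 tested pseudogenes 120 rose (21.4%) and 37 fell.

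There were 11 upregulated genes with no count in any of the 4 libraries on *E. coli*. With a floor of 3 counts over that group the increase was at least 148-fold for *Y54G2A.57* (430 counts on *E. faecalis*) and at least 2.74-fold for *cyp-33B1* (8 counts), the highest and lowest of the 11, a set chosen after the values were seen. The fitted log2 fold change of *Y54G2A.57* was 9.69, and 8.44 without *E. faecalis* replicate 3. The *cyp-33B1* call was lost when 1 of 6 of the 7 N2 libraries was left out.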
